A study of Mus musculus with 6 samples.

Results

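The cytosolic ribosome reads messenger RNA in a small subunit, built from Rps proteins, and joins amino acids in a large subunit, built from Rpl proteins. Cells make these proteins in matched amounts, and the messages of most of them begin with a run of C and T bases, the 5′ terminal oligopyrimidine (TOP) tract, through which mTOR signalling sets their translation. Motor neurons have large cell bodies packed with ribosomes, seen under the microscope as Nissl substance. The ribosomal protein genes were followed in RNA from brainstem motor neurons on 6 Affymetrix mouse arrays, 3 from SOD1 mice and 3 from wild-type (WT) mice. The SOD1 gene encodes a superoxide dismutase that is mutated in some familial amyotrophic lateral sclerosis. Its allele and promoter in these mice, their strain and age, and how the neurons were collected are not stated in the labels. RNA of both groups went through 2 rounds of T7-based amplification. Whether each array holds RNA of its own animal is not stated either, and each p-value below therefore reflects only array-to-array spread, which may be technical.

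A probe set, the group of short probes that reads 1 transcript region, was counted as ribosomal when its only gene symbol in the platform annotation starts with Rpl or Rps and a digit, or is Rpsa, Rplp0, Rplp1 or Rplp2, and does not start with Rps6k or contain -ps. This gave 50 genes of the 18193 with a probe set of their own, read by 106 of 45037 probe sets, 48 probe sets of the large subunit (26 genes) and 57 of the small subunit (23 genes). The last 1 reads Rps19bp1, which encodes a binding partner of Rps19 and not a ribosomal protein, and it is in neither subunit group. A further 110 probe sets list a ribosomal protein together with another symbol, mostly that of a predicted gene or pseudogene, and were outside the rule. They carry 46 ribosomal symbols, of which 31, among them Rplp1, Rpl5, Rpl23 and Rps13, have no other probe set. Ribosomal protein genes have many near-identical processed pseudogenes, so probe sets with 1 symbol may still read more than 1 locus.

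Of the 106 probe sets, 95 passed the filter on low signal and were tested, 45 of the large and 49 of the small subunit and that of Rps19bp1. They read 48 genes. The other 11 lay below the filter, and they include the only probe sets under the rule of Rpl3l, a muscle paralog of Rpl3, and of Rps16. Signals are log2 values after quantile normalisation. Changes are differences of group means on that scale, SOD1 minus WT, with their SE and 3 arrays in each group, from limma with Benjamini-Hochberg adjustment over all 27022 probe sets tested. As 16 was added before the log, changes of low signals are understated.

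The arrays correlated at 0.918 to 0.957 within groups and 0.901 to 0.937 between groups, across probe sets. The 4 mouse Sod1 probe sets tested differed by -0.81 to 0.27 and 0 passed (lowest adjusted p = 0.257), but a mouse probe set need not read a human transcript. Xist was at 12.83 and 12.91 on SOD1 replicates 1 and 2, at 5.71 on SOD1 replicate 3 and at 5.76 to 7.07 in WT, so the SOD1 arrays differ among themselves in this transcript of the inactive X chromosome. Microglial markers had 22 of 22 positive estimates with 6 past the threshold, and their summed linear signal was 141652 to 266878 in SOD1 and 14189 to 57301 in WT. The sums were 248164 to 252438 in SOD1 and 175298 to 205970 in WT for astrocyte markers, and 587817 to 620679 in SOD1 and 612967 to 703058 in WT for motor neuron markers. Positive estimates were 19 of 22 for astrocyte markers, with 2 past the threshold, and 18 of 19 for oligodendrocyte markers, with 0 past it. Of the 13 motor neuron estimates 8 were negative, and 0 passed. All SOD1 arrays lay below all WT arrays for 4 of the 13, 30.8%, and above for 1, 7.69%. Over all probe sets tested these shares were 9.81% and 10.5%. Endothelial and mural markers summed to 2771 to 5995 in SOD1 and 16297 to 60742 in WT, with 10 of 10 negative estimates and 2 past the threshold. In each of these lists, 0 genes with a probe set were at the background level on every array. The RNA therefore held messages of several cell types, and fewer cells of a type cannot be told apart from less RNA per cell.

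The annotated starts of the ribosomal protein genes were searched for features the family is known for. RefSeq promoter windows (GRCm38.p6) were found for 44 of the 50 genes, with 52 starts in all. A run of at least 8 C or T bases within 25 bases of the start lay on the transcribed strand in 23 of the 52 windows, 44.2%, against 19.3% of the windows of protein-coding genes and 19.7% of all windows. On the other strand 3.85% of the ribosomal windows had such a run, against 20.8% of the protein-coding ones. The following windows run from 20 bases before the start to 10 bases after it, with the longest C and T run in capitals, for the genes whose values are given first below.
Rpl39l (chr16:10170208-10170237, plus strand): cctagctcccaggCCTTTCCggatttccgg
Rpl39 (chrX:37085213-37085242, minus strand): CCCCCCCTaagctccgcctctagcgacttc
Rps24 (chr14:24490658-24490687, plus strand): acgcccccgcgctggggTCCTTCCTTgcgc
Rps18 (chr17:33955656-33955685, minus strand): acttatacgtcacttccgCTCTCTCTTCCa
Rps27 (chr3:90213639-90213668, minus strand): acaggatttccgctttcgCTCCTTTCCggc
Rpl22l1 (chr3:28805488-28805517, plus strand): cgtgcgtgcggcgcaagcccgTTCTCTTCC

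In Rps24, Rps18, Rps27 and Rpl22l1 the run spans or follows the start, whereas in Rpl39l and Rpl39 it ends before the start. Of 5 motifs searched on both strands in the 250 bases before the start, CGGAAG, the core that ETS factors bind, was in 26 of the 52 ribosomal windows against 17.1% of the protein-coding and 13.6% of all windows. TCGCGAGA was in 17.3%, against 1.23% and 0.858%. GGGCGG was in 46.2%, against 42.6% and 32.7%, AAGATGG in 7.69%, against 4.13% and 4.49%, and TATAAA in 7.69%, against 11.6% and 12.4%. The tested genes with a C and T run at a start had a median log2 change of 0.24 (23 genes), and those without one 0.26 (19 genes).

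Ribosomal protein signals were higher in SOD1 by a small amount across most of the family, but no probe set of the 95 passed the threshold in either direction (limma, lowest adjusted p = 0.0651). Over all probe sets tested, 0.0629% passed as higher and 0.122% as lower. The median log2 change of the 95 was 0.26, with quartiles of 0.10 and 0.42, against -0.01, with quartiles of -0.37 and 0.34, over all tested. The estimate was positive for 81 of the 95, 85.3%, against 49.5% over all tested. All SOD1 arrays lay above all WT arrays for 32 probe sets, 33.7%, against 10.5% over all tested, and all lay below for 1, 1.05%, against 9.81%. At an unadjusted p under 0.05, 26 were higher and 1 was lower, against shares of 7.09% and 7.58% over all tested. Of the higher ones, 24 were among the 69 tested probe sets whose suffix marks a design shared between transcripts. Among the 26 tested probe sets without that suffix, 2, 7.69%, were higher and 1, 3.85%, was lower, near the shares over all tested. Probe sets of a gene, and genes of the family, share arrays and partly share sequence, so these counts are not independent observations.

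The difference was also present beside probe sets of like signal. Among probe sets with a mean log2 signal of 14 or more, the 59 ribosomal ones had a median change of 0.19, and 21 of them had all SOD1 arrays above all WT arrays, against a median of 0.02 and 16.8% over the 2525 probe sets at that level. The scaling moved its size. Without quantile normalisation the median was 0.32, against -0.06 over all tested, and centring each array on its median gave 0.43, against 0.04 over all tested. Groups did not overlap, with SOD1 higher, for 46 of 96 without quantile normalisation (9.62% over all tested) and for 55 of 96 with median centring (12.9%).

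The 2 arrays numbered 3 held the ends of the range. SOD1 replicate 3 was the highest of the 6 arrays for 53 of the 95 probe sets, 55.8%, against 19.9% over all tested, and WT replicate 3 was the lowest for 57 of them, against 18.9%. Relative to each probe set's mean over the 6 arrays, the median of the 95 was 0.03, 0.09 and 0.28 on SOD1 replicates 1, 2 and 3, against -0.01, -0.05 and -0.27 on WT replicates 1, 2 and 3. The other 4 arrays kept the same order of groups within a narrow range. Without WT replicate 3 the median log2 change was 0.15, without SOD1 replicate 3 it was 0.20, and without both it was 0.08, with 65 of 95 estimates positive, against 50.4% over all tested. Without both, 9 were higher and 3 lower at an unadjusted p under 0.05, against 5.51% and 6.60% over all tested. Both directions together, this share was close to the 12.1% over all tested, with no excess of small p-values when directions are pooled. Taken apart, the 9 higher and 3 lower leaned toward SOD1, whereas all tested leaned slightly the other way. WT replicate 3 was also the lowest array for 21 of the 22 microglial probe sets. SOD1 replicate 1, the highest array for 19 of them, had the smallest ribosomal deviation of the SOD1 arrays. By median deviation, the astrocyte markers ranked the 6 arrays in the same order as the ribosomal proteins. Their medians were 0.33, 0.39 and 0.47 on the SOD1 arrays, against -0.09, -0.28 and -0.55 on the WT arrays, in replicate order. By mean deviation the order within SOD1 was the reverse. The astrocyte means were 0.57, 0.48 and 0.40 on SOD1 replicates 1, 2 and 3, and the ribosomal means 0.03, 0.14 and 0.24. The oligodendrocyte medians nearly kept the ribosomal order, at 0.12, 0.25 and 0.28 in SOD1, against -0.10, -0.08 and -0.63 in WT. WT replicate 3 was the lowest array for 12 of the 22 astrocyte and 13 of the 19 oligodendrocyte probe sets. The part of these glial messages in the ribosomal values was not tested. With a term for the arrays of high Xist, which leaves SOD1 replicate 3 against the WT arrays, the median was 0.39.

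**Figure D1:**
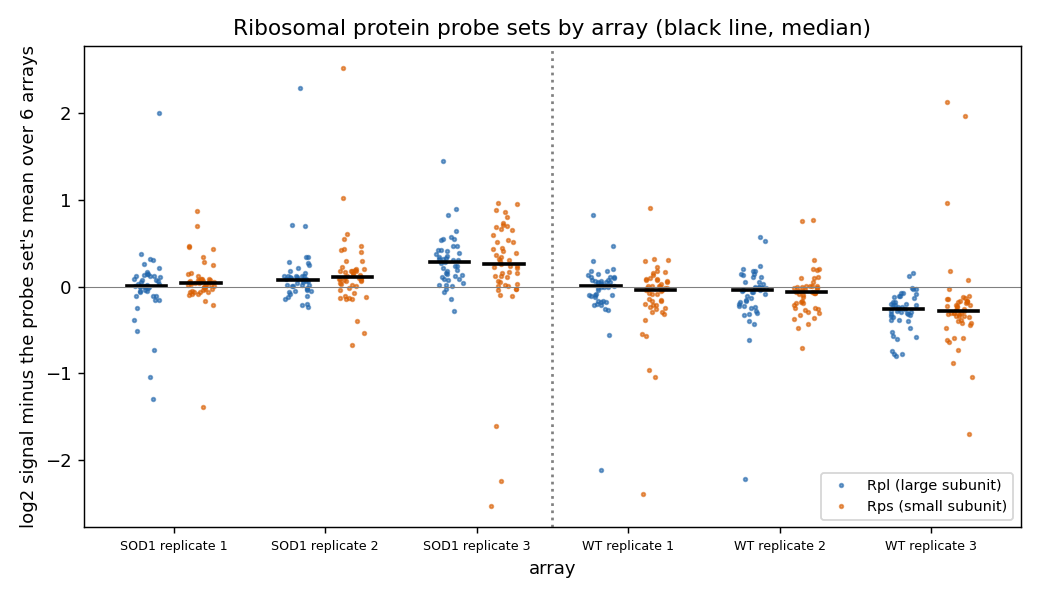
Log2 signal of the tested ribosomal protein probe sets on each array (x axis), as the difference from each probe set's own mean over the 6 arrays (y axis), for 45 large-subunit (blue) and 49 small-subunit (orange) probe sets. Points are probe sets and black lines medians: SOD1 replicate 3 lies highest (0.28 and 0.25) and WT replicate 3 lowest (-0.26 and -0.28) in both subunits.

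Both subunits had medians above that of all probe sets tested. The median log2 change was 0.23 over the 45 large-subunit and 0.31 over the 49 small-subunit probe sets, with 39 and 42 positive estimates. All SOD1 arrays lay above all WT arrays for 13 large-subunit probe sets, 28.9%, and 19 small-subunit ones, 38.8%, both beside the 10.5% over all tested. The mean deviation of the large subunit less that of the small subunit was -0.06, -0.02 and 0.10 on SOD1 replicates 1, 2 and 3, against 0.08, -0.03 and -0.07 on WT replicates 1, 2 and 3, so the groups overlap in subunit balance. With 1 probe set for each gene, that of the highest mean signal, the medians were 0.19 over 25 large-subunit and 0.30 over 22 small-subunit genes.

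Rpl39l showed the largest difference of the family. It encodes a paralog of Rpl39, a small protein at the exit tunnel of the large subunit, and in mice it is known from the ribosomes of male germ cells. Its signal was 9.96, 10.25 and 8.79 on SOD1 replicates 1, 2 and 3, against 5.84, 5.74 and 7.18 on WT replicates 1, 2 and 3. The groups were apart by more than a unit, and all 3 WT values lay below the background level of their array. That level, 7.21 to 7.61, is the value that 95% of the 27 bacterial control probe sets stay under. The log2 change was 3.41 ± 0.63, short of the threshold (limma, adjusted p = 0.0651). Set against the background level, Rpl39l was at least 5.25-fold higher in SOD1, where every array was above that level. It passed the filter only through its SOD1 values. It passed the threshold without WT replicate 3 (3.85, adjusted p = 0.0418), with array weights, with a pseudocount of 64 and with 1 probe set per gene, and over the alternatives in which it was tested its adjusted p ran from 0.0347 to 0.299. On the arrays of low Xist alone, SOD1 replicate 3 against WT, the change was 2.53 ± 0.83.

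Rpl39 itself, the X-linked parent gene, had 10.44, 10.81 and 10.40 on the SOD1 arrays, against 10.74, 10.92 and 10.81 on the WT arrays. The groups overlapped, and the estimate was -0.28 ± 0.29 (adjusted p = 0.697), the most negative of the large subunit by the probe sets of highest signal. A brighter probe set that lists Rpl39 with another symbol, outside the rule, went the other way, with 17.05, 17.13 and 17.11 in SOD1, against 17.02, 16.92 and 16.91 in WT (0.15 ± 0.08, adjusted p = 0.396). Its groups did not overlap, so the sign of the Rpl39 difference depended on the probe set. The 250 bases before the start of each are printed because both paralogs are described here, with CGGAAG on either strand in capitals. The Rpl39l stretch held it at 2 places and the Rpl39 stretch at 0, which says only whether these letters are in the window.
Rpl39l (GRCm38.p6, chr16:10169978-10170227, plus strand): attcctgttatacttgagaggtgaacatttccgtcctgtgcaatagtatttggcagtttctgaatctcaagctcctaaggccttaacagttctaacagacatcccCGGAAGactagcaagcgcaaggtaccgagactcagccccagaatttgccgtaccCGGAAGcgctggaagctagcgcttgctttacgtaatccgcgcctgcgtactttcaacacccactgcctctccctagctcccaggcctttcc
Rpl39 (GRCm38.p6, chrX:37085223-37085472, minus strand): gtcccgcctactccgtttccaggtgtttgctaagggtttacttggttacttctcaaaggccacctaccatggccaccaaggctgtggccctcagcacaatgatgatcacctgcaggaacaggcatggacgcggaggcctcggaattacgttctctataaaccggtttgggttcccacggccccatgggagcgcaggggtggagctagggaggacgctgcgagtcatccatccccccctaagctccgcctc

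The other paralog pairs had mostly positive estimates for both partners. Rpl22, whose protein binds RNA outside the ribosome as well, was at 0.46 ± 0.14 by its brightest probe set and at 0.31 and 0.36 by the other two. Rpl22l1, the paralog whose message is raised in mice that lack Rpl22, had 15.15, 15.35 and 15.47 in SOD1, against 14.81, 14.46 and 15.23 in WT, a difference of 0.49 ± 0.19 (adjusted p = 0.258) with overlap on WT replicate 3. Rps27l, a p53 target in human cells, was higher by 0.51 ± 0.20, 0.62 ± 0.27 and 0.32 ± 0.25 on its 3 probe sets, with no overlap on 2 of them. The first of these was 0.28 without SOD1 replicate 3. Rps27, a zinc-finger protein of the small subunit, had 11.17, 10.60 and 11.13 in SOD1, against 10.76, 10.38 and 8.77 in WT. Its change of 1.00 ± 0.47 (adjusted p = 0.361) rested on the low WT replicate 3, without which it was 0.40 ± 0.34. A brighter probe set shared by Rps27 and Rps27rt, outside the rule, was at 0.53 ± 0.12 without overlap. Rps4l was at 0.44 ± 0.41, and at 0.12 when either number 3 array was left out, and X-linked Rps4x at 0.27 ± 0.14. The 2 tested probe sets of Rpl7l1 gave 0.33 ± 0.28 and -0.06 ± 0.29, the first of them 0.04 without WT replicate 3.

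**Figure D2:**
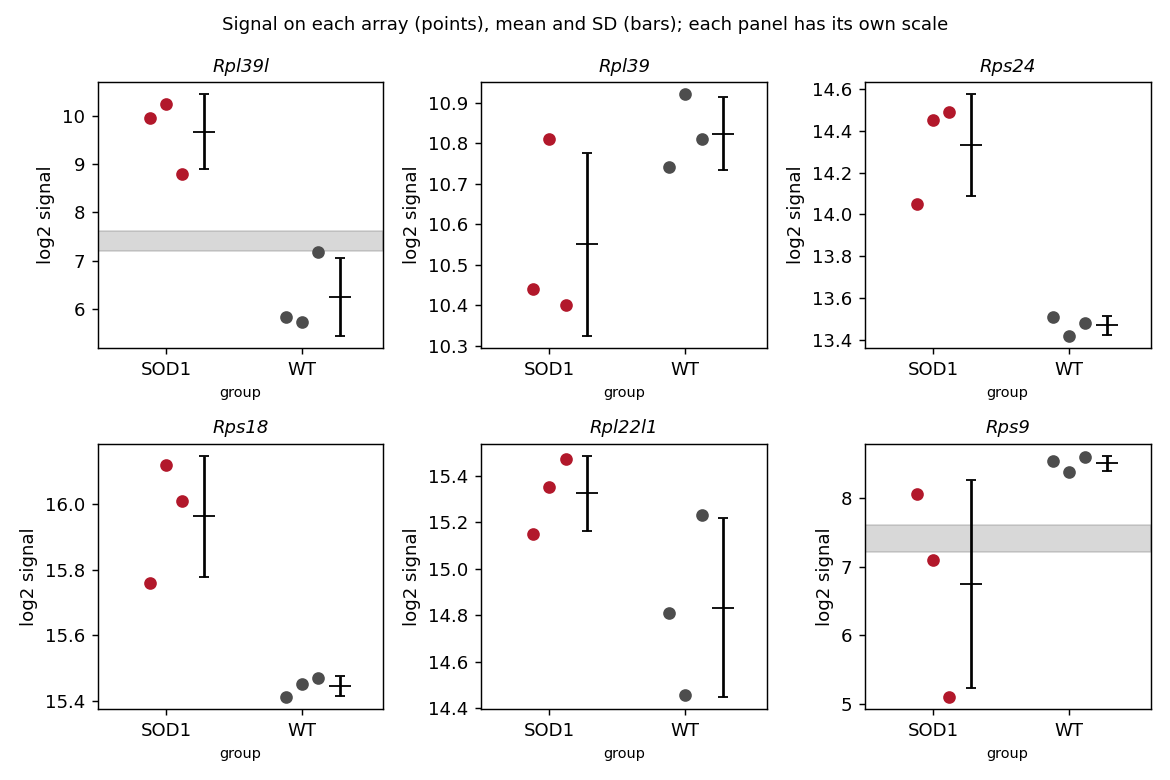
Log2 signal (y axis, its own scale in each panel) of 1 probe set each of Rpl39l, Rpl39, Rps24, Rps18, Rpl22l1 and Rps9 in SOD1 (left, red) and WT (right, grey). Points are arrays, bars the mean and SD of 3, and the grey band in the Rpl39l and Rps9 panels the range of background levels over the arrays (7.21 to 7.61): Rpl39l lies above the band in SOD1 and below it in WT.

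Rps24 had the smallest p of the small subunit. Its protein takes part in processing the small-subunit RNA, and the human gene is 1 of those mutated in Diamond-Blackfan anaemia, a failure of red cell formation. The probe set with the smallest p had 14.05, 14.45 and 14.49 on the SOD1 arrays, against 13.51, 13.42 and 13.48 on the WT arrays, so the groups were apart by more than the spread within either. The change was 0.86 ± 0.17, 1.82-fold (adjusted p = 0.0883). The other 4 tested Rps24 probe sets gave 0.55 ± 0.18 to 0.80 ± 0.44, and 3 of the 5 had no overlap. By the brightest one the change was 0.55, and 0.36 without both number 3 arrays.

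The other anaemia genes among the members had estimates from -0.23 to 0.56. Rpl11, which also holds back the p53 inhibitor Mdm2, had 15.26, 15.45 and 15.65 in SOD1, against 15.07, 14.99 and 14.97 in WT, a change of 0.45 ± 0.13 without overlap (adjusted p = 0.166). Rps19, the first gene tied to the disease, was at 0.31 ± 0.17. Rps7 was at 0.09 ± 0.09 by its brightest probe set and at 0.56 ± 0.23 by the second. Rps26 was at 0.09 ± 0.14, and the 6 probe sets of Rps10 lay between -0.23 and 0.33. Over the 16 tested probe sets of these 6 genes the median was 0.32, and 5, 31.2%, had all SOD1 arrays above all WT arrays, beside 10.5% over all tested. Of these 5, 3 are the Rps24 probe sets above. Rpl5, Rpl26 and Rpl35a, also anaemia genes, have no probe set under the rule. Tested probe sets that list them with another symbol gave 1.01, 0.50 and 0.22 for Rpl5, 0.64 and 0.32 for Rpl26 and 0.38 for Rpl35a. Such probe sets of Rps7, Rps19 and Rpl11 gave 0.78, -0.34 and -1.18. Of all these, 0 passed the threshold.

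Rps18, a protein of the small-subunit head, had 15.76, 16.12 and 16.01 in SOD1, against 15.41, 15.45 and 15.47 in WT, on the probe set with its smallest p. All 3 tested Rps18 probe sets were without overlap, at 0.52 ± 0.12, 0.51 ± 0.16 and 0.32 ± 0.12 (adjusted p = 0.116, 0.199 and 0.252). Rps3a1, which lies near the exit of the messenger RNA channel, had 16.41, 16.53 and 16.65 in SOD1, against 16.16, 16.08 and 16.15 in WT, a change of 0.40 ± 0.10 (adjusted p = 0.119). Rps3, which lines the entry of that channel, was at 0.31 ± 0.10 and Rpsa, also known as the laminin receptor, at 0.26 ± 0.10. Neither of these showed overlap of the groups on its brightest probe set. All 4 tested probe sets of Rps20 were positive, from 0.33 to 1.07, and 3 were without overlap.

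Some small-subunit genes gave mixed readings. Rps14, whose loss of 1 copy underlies the anaemia of the human 5q- syndrome, was at 0.42 ± 0.11 without overlap on 1 probe set and at -0.08 ± 0.10 on the other. Rps6, the substrate of S6 kinase after which that kinase is named, was at 0.36 ± 0.28 by its brightest probe set under the rule. Tested probe sets that list Rps6 with another symbol ran from -0.03 on the brightest to 0.54 on the weakest. Rps2 was at -0.16 ± 0.11 and Rps29 at 0.03 ± 0.09 by its brightest probe set. Rps9 was the 1 gene whose probe sets differed by over 1. Its weakest probe set had 8.06, 7.09 and 5.10 in SOD1, against 8.53, 8.38 and 8.59 in WT, with 2 SOD1 arrays at the background level and a change of -1.75 ± 0.76 (adjusted p = 0.322). The brightest Rps9 probe set gave -0.09 ± 0.23. Rps19bp1 was at -0.29 ± 0.27.

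In the large subunit, Rpl7 was without overlap on all 3 of its probe sets, at 0.58 ± 0.17, 0.42 ± 0.24 and 0.34 ± 0.12. On the second of them the nearest SOD1 and WT values both rounded to 12.15. By its brightest probe set Rpl7 had 15.54, 15.56 and 15.77 in SOD1, against 15.26, 15.28 and 15.33 in WT. Rpl37 was at 0.62 ± 0.29 and Rpl14 at 0.44 ± 0.32. The Rpl14 estimate was 0.16 without WT replicate 3 and 0.03 without both number 3 arrays. Brighter probe sets that list these genes with another symbol, outside the rule, differed less. Those of Rpl14 gave 0.15, 0.09, 0.08, 0.07 and 0.04, and those of Rpl37 gave 0.35, 0.29 and -0.02. Rpl38, needed in mouse embryos for the translation of Hox messages, was at 0.26 ± 0.10. Of the stalk that recruits elongation factors, Rplp0 was at 0.12 ± 0.15 and Rplp2 at 0.06 ± 0.11. Rplp1, also of the stalk, has no probe set under the rule. A probe set that lists it with another symbol had 16.84, 16.87 and 16.95 in SOD1, against 16.62, 16.69 and 16.67 in WT. That difference was 0.22 ± 0.08 without overlap (limma, adjusted p = 0.237). Rpl4 was at 0.01 ± 0.11, Rpl8 at 0.05 ± 0.12, Rpl6 at -0.11 ± 0.11 and Rpl7a at -0.10 ± 0.09. The signs of Rpl7a, Rps2 and Rps10 turned both without quantile normalisation and under median centring. Those of Rpl6 and Rps9 turned with median centring, and Rpl6 was at 0.00 without quantile normalisation.

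**Figure D3:**
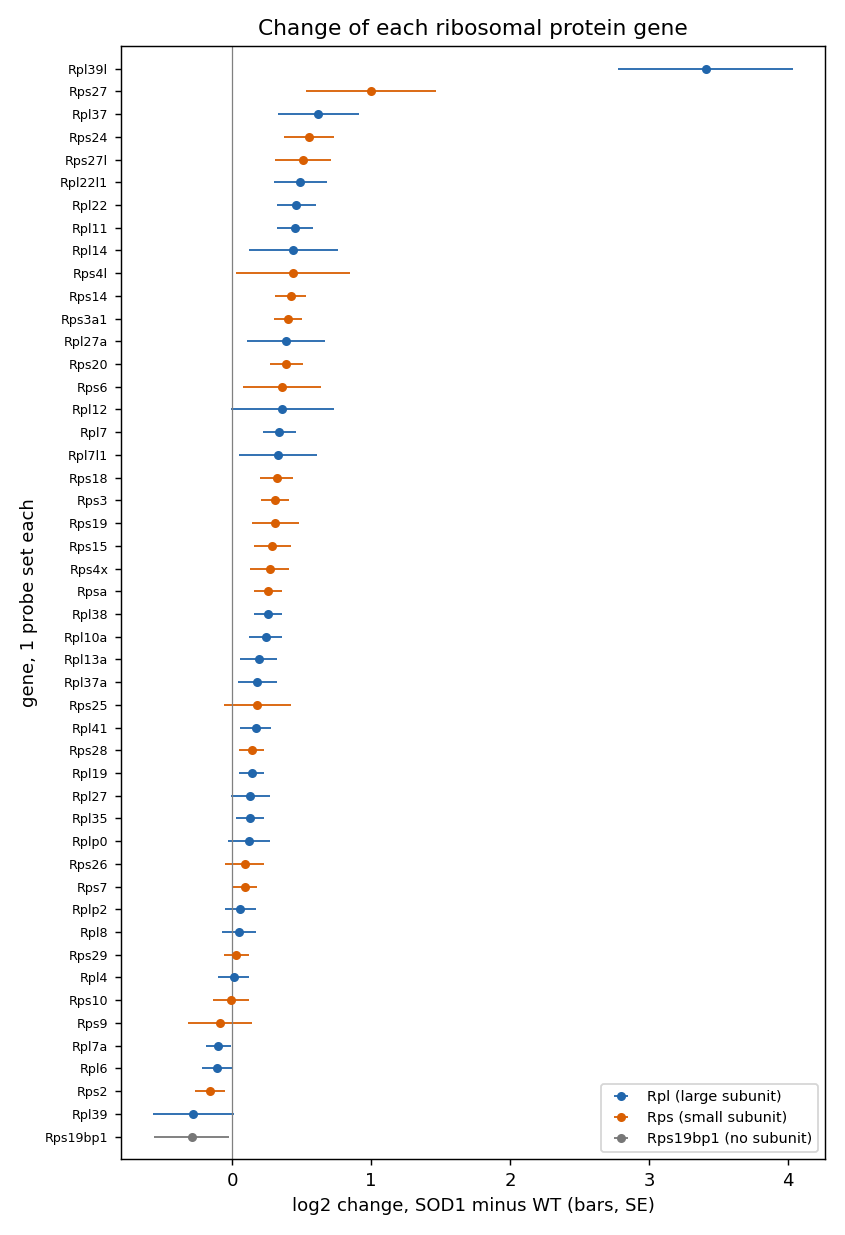
Log2 change (x axis, SOD1 minus WT, bars SE) of the 48 tested genes by the probe set of highest mean signal, ordered by size, with large-subunit genes in blue, small-subunit genes in orange and Rps19bp1 in grey. Of the genes 41 lie above 0, and Rpl39l at 3.41 stands apart from the next, Rps27 at 1.00.

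Probe sets of the same gene mostly had the same sign, in 17 of the 21 genes with 2 or more tested. The exceptions were Rpl41, Rpl7l1, Rps10 and Rps14. The 69 tested probe sets whose suffix marks a design shared between transcripts had a median of 0.25, with 29 without overlap and higher in SOD1. The 26 others had a median of 0.33, with 3 such, 11.5%, near the 10.5% over all tested.

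Of the genes that work with the ribosome, the translation initiation factors had the same median as the ribosomal proteins. None of 66 probe sets of 24 genes passed the threshold, the median was 0.26, and 23, 34.8%, had all SOD1 arrays above all WT arrays. Eif2s3x and Eif2s2, which encode subunits of the factor that carries the initiator tRNA, were at 0.77 ± 0.18 and 0.72 ± 0.18 (adjusted p = 0.118 and 0.133) on the probe sets with their smallest p. Their other probe sets were positive except 1 of Eif2s2, at -1.08 ± 0.66. Eif2s3x is X-linked, and Xist was high on SOD1 replicates 1 and 2 only. On the probe set with its smallest p, Eif2s3x had 14.76, 14.95 and 14.58 in SOD1, against 13.81, 13.85 and 14.34 in WT. The part of the X chromosome in this difference was not tested. Elongation and release factors had a median of 0.22 over 29 probe sets, with 10 above, 34.5%, and 5 below, 17.2%, without overlap, beside 10.5% and 9.81% over all tested, and 0 past the threshold. The isoforms of elongation factor 1A had estimates of opposite sign. Eef1a1, the form of most cells, had 16.24, 16.05 and 16.15 in SOD1, against 15.53, 15.74 and 15.31 in WT (0.62 ± 0.13, adjusted p = 0.0883). Eef1a2, the form of mature neurons and muscle, had 14.78, 14.18 and 14.18 in SOD1, against 15.00, 15.47 and 15.38 in WT (-0.90 ± 0.19, adjusted p = 0.0979). Neither passed the threshold, and neither pair of groups overlapped.

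Ribosome assembly factors had a median of 0.14 over 74 probe sets of 41 genes, with 16 above, 21.6%, and 3 below, 4.05%, without overlap, beside 10.5% and 9.81% over all tested. Wdr12, part of a complex that processes large-subunit RNA, was at 1.13 ± 0.24 (adjusted p = 0.0938) on 1 probe set and at 0.29 ± 0.34 on the other, and Npm1, the nucleolar protein nucleophosmin, at 0.78 ± 0.17 (adjusted p = 0.106) and 0.47 ± 0.12. RNA polymerase I genes, which make the ribosomal RNA, had a median of 0.05 over 25 probe sets with 2 above and 0 below, beside 10.5% and 9.81% over all tested. Among them Znrd1, a subunit of the polymerase, was at 0.63 ± 0.21 (adjusted p = 0.218), and Polr1d, a subunit shared with polymerase III, at 0.49 ± 0.23 (adjusted p = 0.369) on the probe set with its smallest p. The other Polr1d probe sets lay between -0.21 and 0.54. Genes of mTOR signalling and TOP control had a median of -0.07 over 41 probe sets with 4 above, 9.76%, and 6 below, 14.6%. Among them Larp4, which binds poly(A) and messages with a TOP tract, had 12.31, 12.68 and 12.22 in SOD1, against 10.63, 10.61 and 11.70 in WT (1.42 ± 0.33, adjusted p = 0.117), and its other probe sets were at 0.60 ± 0.35 and 0.18 ± 0.28. Tia1, a stress granule protein that binds TOP messages, had 10.94, 11.17 and 11.25 in SOD1, against 11.98, 11.93 and 12.56 in WT (-1.04 ± 0.27, adjusted p = 0.143) on the probe set with its smallest p. On these 2 probe sets the groups did not overlap. The other 4 Tia1 probe sets differed in sign, at -2.25 ± 0.60, 0.24 ± 0.39, 0.25 ± 0.44 and 0.02 ± 0.32. None of the probe sets of these lists passed the threshold (limma), and at an unadjusted p under 0.05 the assembly list had 12 higher and 2 lower, the polymerase list 1 and 0, and the mTOR list 2 and 5, beside shares of 7.09% and 7.58% over all tested. Mitochondrial ribosomal proteins, which form the separate ribosome of that organelle, had a median of 0.11 over 140 probe sets, with 25 above, 17.9%, and 7 below. On them too SOD1 replicate 3 was most often the highest array, for 53 of 140, and WT replicate 3 the lowest, for 47. Proteasome subunits had a median of 0.04 over 61 probe sets, with 15 above, 24.6%, and 4 below, 6.56%, without overlap. Over all tested these shares were 10.5% and 9.81%.

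**Figure D4:**
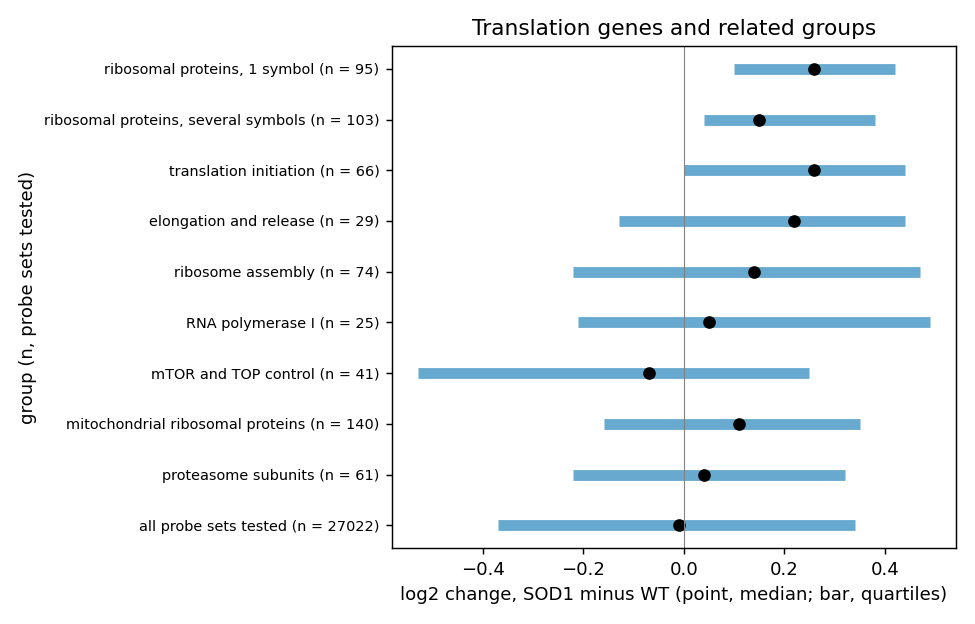
Median (point) and quartiles (bar) of the log2 change, SOD1 minus WT (x axis), over the probe sets of each group (rows, with the number tested). The ribosomal proteins and the translation initiation factors have medians of 0.26, against -0.01 over all 27022 probe sets tested.

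**Figure D5:**
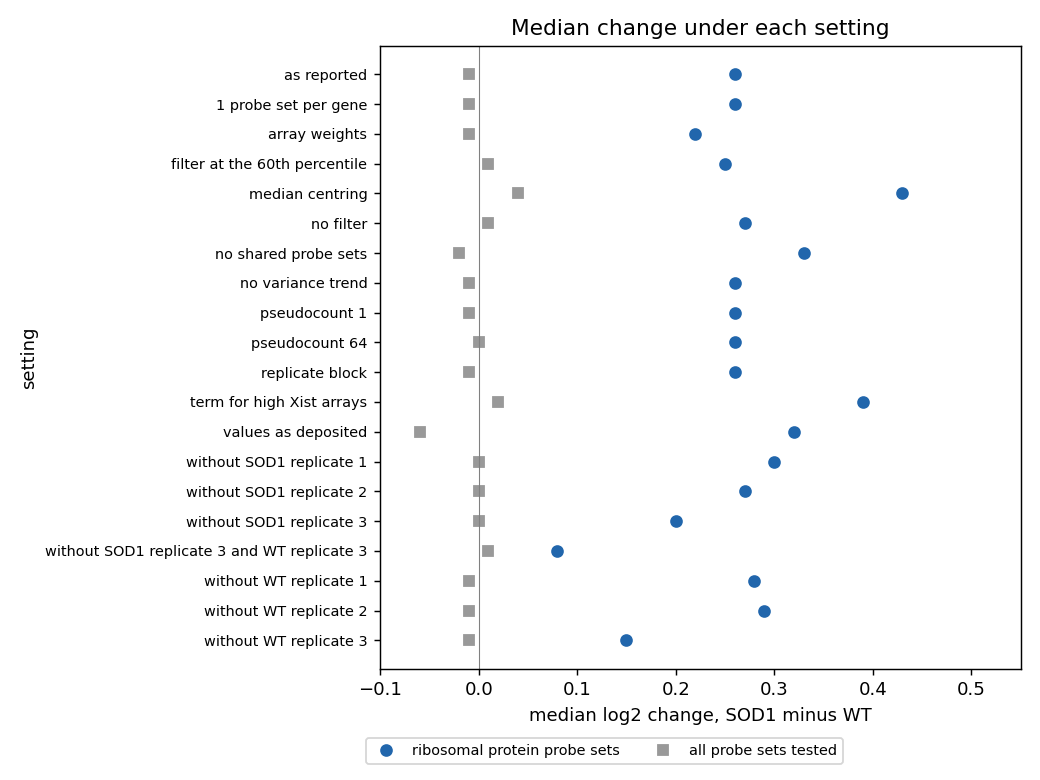
Median log2 change, SOD1 minus WT (x axis), over the ribosomal protein probe sets (blue circles) and over all probe sets tested (grey squares) under each setting (rows). The ribosomal median is positive in each of the settings shown, highest with median centring (0.43) and lowest without both number 3 arrays (0.08).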

How the data were processed

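The deposited table gives 1 linear signal intensity per probe set and array. The authors had scaled each array to a common 2% trimmed mean, which was 2500.02 on all 6, as found from the values. Amplification in 2 rounds is stated per the labels, and the summary algorithm is not given in the sources used here. Such amplification shortens RNA and lowers the signal of probes distant from the 3' end. The log2 signal of the 3' control less the 5' control of Actb was 4.66, 4.88 and 4.20 on SOD1 replicates 1, 2 and 3, against 5.14, 4.36 and 4.83 in WT. For Gapdh it was 3.44, 3.70 and 3.30 in SOD1, against 4.68, 3.52 and 3.28 in WT. The part of this in the ribosomal values was not tested. No detection calls were used. The array medians ran from 267 to 315, so arrays were quantile normalised, 16 was added and log2 taken. Of 45101 probe sets, 64 controls were left out, and a filter at the 40th percentile of mean signal kept 27022 of the rest. SOD1 was compared with WT in limma 3.58.1 (R 4.3.3) with a variance trend, two-sided, at an adjusted p of 0.05, and the step was tested on simulated data. Symbols were looked up in RefSeq (GRCm38.p6), where all 106 members matched.

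The members and lists were chosen with earlier results of these data known. Genes named were any past the threshold, the 10 highest and 10 lowest by the brightest tested probe set of each gene, genes whose probe sets differed by over 1, and a fixed set of paralogs, stalk proteins and anaemia genes. From each related list the 2 with the smallest p were named. Rps18, Rps3a1, Rps3, Rps20, Rpl38 and Rpl41 were added after their values were seen, as was the motif search and the split by mean signal. Alternatives covered scaling, pseudocount, filter, variance model, array weights, replicate block, Xist, left-out arrays and probe set choice. Figures were drawn with matplotlib 3.10.9. The number of arrays limits the precision.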

Additional observations from a re-analysis of the deposited data

How the results depend on the processing

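Over 19 alternatives the ribosomal median stayed positive, and so did those of both subunits. It moved by more than the spread between replicates with median centring (0.43, large subunit 0.41, small subunit 0.45), with a term for high Xist arrays (0.39, 0.37 and 0.39), where the lone SOD1 array is taken to vary like the others, and without both number 3 arrays (0.08, 0.07 and 0.14), a setting chosen after seeing the data. It also moved by more than that spread without WT replicate 3 (0.15, small subunit 0.22), and the small-subunit median did so without SOD1 replicate 3 (0.23). With single arrays left out it ran from 0.15 to 0.30, the large subunit from 0.13 to 0.29 and the small from 0.22 to 0.36. Each of these had its lowest value when WT replicate 3 was left out. The large minus small median ran from -0.12 to -0.01 over all alternatives.

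The number of ribosomal probe sets past the threshold was 0 in 14 alternatives and 1, Rpl39l, with array weights, a pseudocount of 64, 1 probe set per gene, or when WT replicate 3 or both number 3 arrays were left out, so 0 to 1 with single arrays left out. Rpl39l was not tested with a filter at the 60th percentile. Without shared probe sets, a gene whose brightest probe set is shared has no value. The count over all probe sets was 50 and became 100 with array weights, 106 with a filter at the 60th percentile, 87 with a pseudocount of 64, 25 without shared probe sets and 0 without a variance trend, where 3247 had an unadjusted p under 0.05. It ran from 0 (without WT replicate 2, with 2659 at an unadjusted p under 0.05) to 79 (without WT replicate 3) with single arrays left out, and was 6 when SOD1 replicate 2 was left out, 9 for WT replicate 1 and 29 for SOD1 replicate 3. The replicate block gave 76 calls over all probe sets and 0 ribosomal ones, with a ribosomal median of 0.26. The correlations of deviations of same-numbered arrays were 0.03, -0.04 and -0.01, and those of differently numbered arrays ran from -0.067 to 0.076. The labels do not say whether same-numbered arrays were processed together, and correlations over 3 arrays per group cannot settle it.

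Of the 31 genes named by the rule, 12 changed sign in at least 1 alternative, 32 changes in all, none of them at a value past the threshold. Some of these changes are to values that round to 0.00. With median centring the values were 0.11 for Rpl6, 0.17 for Rpl7a, 0.19 for Rps10, 0.11 for Rps2 and 0.04 for Rps9, and with values as deposited 0.00, 0.07, 0.09 and 0.01 for the first 4. The Xist term gave 0.05 for Rps10 and 0.39 for Rps9, and array weights 0.00 for Rpl4. With 1 array or both number 3 arrays left out, the values ran from -0.06 to 0.09 for Rpl4, -0.03 to 0.13 for Rpl8, -0.15 to 0.05 for Rps10, -0.46 to 0.09 for Rps9, -0.02 to 0.08 for Rps29, -0.06 to 0.12 for Rplp2, -0.09 to 0.21 for Rplp0, -0.20 to 0.88 for Rps4l and -0.01 to 0.19 for Rps26. The cause was not tested. Signal near the background level limits the Rpl39l and Rps9 values.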

Other observations

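The 110 probe sets that list a ribosomal protein together with another symbol were outside the rule and are given here as values. Of these 103 were tested and 0 passed the threshold (limma, lowest adjusted p = 0.0979). Their median log2 change was 0.15, with 82 positive estimates. All SOD1 arrays lay above all WT arrays for 41, 39.8%, and below for 3, 2.91%, beside 10.5% and 9.81% over all probe sets tested. The smallest p belonged to a probe set of Rps21, with 16.20, 16.52 and 16.50 in SOD1, against 15.97, 15.87 and 15.83 in WT (0.52 ± 0.11). A probe set shared by Rps27 and Rps27rt had 15.93, 16.22 and 16.22 in SOD1, against 15.68, 15.63 and 15.48 in WT (0.53 ± 0.12, adjusted p = 0.108). A probe set of Rpl28 was at -0.67 ± 0.15 (adjusted p = 0.109), and 1 that lists Rpl11 was at -1.18 ± 0.43, opposite in sign to the Rpl11 probe set with 1 symbol. Fau, which encodes a ubiquitin-like protein fused to Rps30, was at 0.14 ± 0.11. Rps21, Rpl28 and Rpl11 were chosen here after their values were seen.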
